A study of Mus musculus with 18 samples.

Results

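The comparison described here is whether deletion of caspase-6 acted differently on the transcriptome of inguinal white adipose tissue (iWAT) and brown adipose tissue (BAT) of obese mice. For each gene, the C6KO minus WT difference in iWAT was set against the C6KO minus WT difference in BAT, and 12 of the 18 libraries of the series entered this comparison, with 3 libraries in each of the 4 groups of depot and genotype. C6KO mice were global caspase-6 knockouts, WT and C6KO mice were littermates from heterozygous parents on a C57BL/6J background, and all were males fed for 12 weeks on a high fat diet (HFD, 60% fat by energy), starting between 10 and 14 weeks of age. Fat was taken after a fast. Because the knockout was global and bulk tissue was sequenced, fewer cells of a type and less RNA per cell cannot be told apart. The labels do not say that each library came from a separate animal, and p-values measure the spread between these libraries.

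Caspase-6 is an executioner-type protease. White fat stores triglyceride in large droplets and secretes hormones such as leptin in proportion to its size. Brown fat burns fatty acids in mitochondria that carry uncoupling protein 1, and on a high fat diet it can take up fat and gain features of white fat. Macrophages that gather in obese fat carry a lysosomal and lipid-handling programme in both kinds of depot.

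Total counts were between 16506034 and 19043523 per library in iWAT and between 7803108 and 12428683 in BAT, so BAT was read less deeply. The depot labels held: Ucp1 was between 4472 and 10140 CPM (library-scaled counts, normalized by TMM) in BAT libraries and between 1.11 and 3.45 CPM in iWAT libraries. Casp6 was 19.2, 19.0 and 15.4 CPM in WT iWAT and 5.42, 5.93 and 7.67 CPM in C6KO iWAT. In BAT, Casp6 was 19.5, 11.5 and 14.4 CPM in WT and 3.18, 5.62 and 7.17 CPM in C6KO. The genotypes did not overlap in either depot, and the C6KO effect on Casp6 differed by -0.0030 ± 0.43 (log2, SE, n = 3 libraries per group) between them. C6KO libraries thus still held reads counted to Casp6, whose origin was not tested. Casp6 was called lower in BAT (adjusted p = 0.02622, edgeR) but not in iWAT (adjusted p = 0.06649).

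One BAT library stood apart from its group. The summed level of 30 skeletal muscle genes was 66290 CPM in BAT WT 2, against 289.1 and 2844 CPM in the other 2 WT libraries and 873 to 12170 CPM in C6KO. In the same library 26 T and B lymphocyte genes summed to 274.1 CPM, against 38.3 and 34.5 CPM in the other WT libraries and 24.0 to 27.3 CPM in C6KO. In iWAT, library iWAT C6KO 3 had 1998 CPM of 25 general macrophage genes, against 731.5 and 774 CPM in the other C6KO libraries. Counts over gene lists that moved by over 1.5 times without either library are given with and without it.

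The difference of effects passed the test for few genes. Of 15056 genes tested by edgeR's quasi-likelihood test with Benjamini-Hochberg adjustment, 9 had a higher C6KO effect in iWAT than in BAT at an adjusted p below 0.05 and a difference of at least 1.5-fold, which is 0.0598% of genes, and 1 had a lower effect, which is 0.00664%. When the p was left unadjusted (below 0.05, with at least a 1.5-fold difference), 574 genes (3.81%) were higher and 356 (2.36%) lower in iWAT. Of the 574, 417 had a higher estimate in C6KO iWAT and a lower one in C6KO BAT, 128 were lower in both depots and 29 higher in both. Of the 356, 309 had a lower estimate in C6KO iWAT and a higher one in C6KO BAT. Picking genes by a large difference of effects favours opposite signs, so these counts are a description and not a separate result. Across all genes tested the effects in both depots had a Pearson correlation of 0.408 and a Spearman correlation of 0.338, genes not being independent replicates, and 60.4% of genes had the same sign. The median difference over all genes was 0.0855 (log2), from a median of 0.0423 in iWAT and -0.0344 in BAT.

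**Figure D1:**
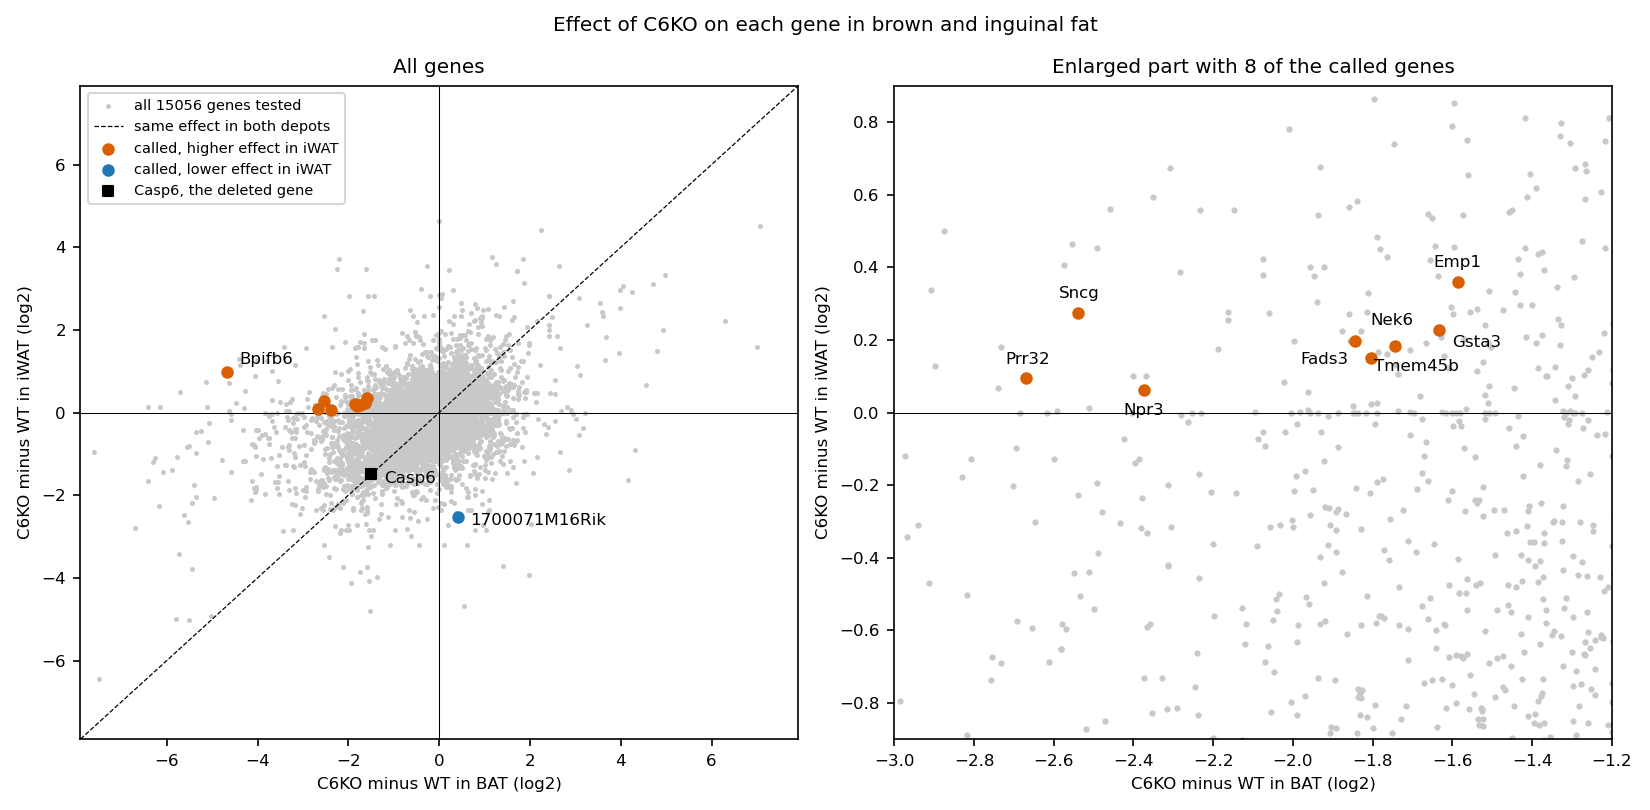
C6KO minus WT (log2) of each of 15056 genes in BAT (horizontal axis) and iWAT (vertical axis), with all genes on the left and the region that holds 8 of the called genes enlarged on the right. The 9 genes with a higher effect in iWAT lie to the left, between -4.67 and -1.59 in BAT and between 0.063 and 0.984 in iWAT, while 1700071M16Rik lies below the dashed line of equal effect and Casp6 on it.

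All 9 genes with the higher effect in iWAT had fallen in C6KO BAT, where each was called lower (1.04% of all genes were) and had no overlap between genotypes (C6KO was below WT without overlap in BAT for 11.9% of genes, and the genotypes were apart in either order for 19.9%). Their iWAT effects were between 0.063 and 0.984 (log2), none was called in iWAT, and in 7 of the 9 the genotypes overlapped in iWAT. Most genes were alike in this. Over all genes tested, 0.0133% were called higher and 0.0863% lower in iWAT, and the genotypes were apart there for 23.2%. For each of the 9, the mean WT level was higher in iWAT than in BAT, which was so for 49.4% of all genes tested. These WT libraries also enter the difference, so the level is given as a description. The summed level of 9 white adipose identity markers was 581.6, 1098 and 550.4 CPM in WT BAT and 117.5, 187.7 and 195.4 CPM in C6KO BAT without overlap, and between 4396 and 5431 CPM with overlap in iWAT, and none of the 9 markers was at 0 in either depot. Leptin (Lep) and Nnat made up most of the sum in WT BAT. In BAT, 7 of the 9 markers had a lower C6KO estimate, but only these 2 were below WT without overlap. Whether that shift had a part in the 9 genes was not tested.

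Sncg, which encodes γ-synuclein, a protein abundant in white adipocytes and neurons, had the smallest p. Its gene (chr14:34370274-34374669 in mm10, minus strand) was 758.2, 692.8 and 716.3 CPM in WT iWAT and 896.8, 910.4 and 815.7 CPM in C6KO iWAT. In BAT it was 148.2, 180.4 and 147.3 CPM in WT and 26.03, 31.7 and 24.0 CPM in C6KO. Every C6KO library was above every WT library in iWAT and below every WT library in BAT. The iWAT effect was 0.28 ± 0.14 (adjusted p = 0.4205, edgeR) and the BAT effect -2.54 ± 0.15 (adjusted p = 3.517e-06), a difference of 2.81 ± 0.21 with an adjusted p of 8.332e-05. Sncg was called under all 28 alternatives, with differences between 2.68 and 2.94.

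Npr3, the clearance receptor for natriuretic peptides, lies at chr15:11839897-11905674 (minus strand). It was 1601, 1746 and 1952 CPM in WT iWAT and 2430, 1313 and 1794 CPM in C6KO iWAT, and these groups overlapped. In BAT it was 624, 792.7 and 617.6 CPM in WT and 177.2, 111.6 and 104 CPM in C6KO. The difference of effects was 2.44 ± 0.35 (adjusted p = 0.03083, edgeR), almost wholly from BAT, where the effect was -2.37 ± 0.25, against 0.06 ± 0.24 in iWAT. Gm5144, annotated on the opposite strand just beyond the counted start of Npr3 and reaching the start of the longer RefSeq transcript, had a difference of 1.92 ± 0.35 that missed the threshold (adjusted p = 0.06854). The counted transcripts do not overlap, and without knowledge of strand the reads of Gm5144 cannot be told apart from those of the longer Npr3 transcript.

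Nek6 encodes a mitotic kinase (chr2:38511697-38587490, plus strand). It stood at 118.1, 112.4 and 129.8 CPM in WT iWAT and 188.7, 105.1 and 118.9 CPM in C6KO iWAT, against 45.5, 36.8 and 39.5 CPM in WT BAT and 13.6, 9.85 and 10.6 CPM in C6KO BAT. Only BAT separated the genotypes, and the difference was 2.04 ± 0.29 (adjusted p = 0.03083, edgeR). Emp1, a membrane protein of the epithelial membrane protein family (chr6:135362931-135383173, plus strand), was 747.9, 734 and 632.8 CPM in WT iWAT and 1126, 852.1 and 735.6 CPM in C6KO iWAT. In BAT, Emp1 was 184.4, 218.6 and 132.8 CPM in WT and 56.6, 59.7 and 62.1 CPM in C6KO. It fell in BAT by 1.59 on the log2 scale and gave a difference of 1.95 ± 0.28 (adjusted p = 0.03083).

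Fads3, a member of the fatty acid desaturase family (chr19:10041548-10059671, plus strand), was 1044, 828.7 and 903.4 CPM in WT iWAT and 1235, 844.8 and 999.3 CPM in C6KO iWAT. BAT held 93.5, 153.9 and 96.4 CPM in WT and 30.6, 36.4 and 31.5 CPM in C6KO. The genotypes overlapped in iWAT and were apart in BAT, and the difference was 1.95 ± 0.30 (adjusted p = 0.04379, edgeR). Tmem45b, a transmembrane protein gene (chr9:31426196-31464238, minus strand), had, of the 9, the closest WT means in both depots. It was 713.6, 735.4 and 792.7 CPM in WT iWAT, 900.3, 684.1 and 962.8 CPM in C6KO iWAT, 688.3, 583.9 and 376 CPM in WT BAT and 189.9, 138.9 and 163.5 CPM in C6KO BAT. Its difference was 1.93 ± 0.30 (adjusted p = 0.0465).

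The remaining 3 genes were expressed at lower levels. Gsta3, a glutathione S-transferase of the alpha class (chr1:21240585-21265575, plus strand), was 37.0, 23.7 and 30.5 CPM in WT iWAT, 37.8, 32.6 and 36.4 CPM in C6KO iWAT, 7.78, 7.62 and 7.05 CPM in WT BAT and 1.71, 2.42 and 3.03 CPM in C6KO BAT. The groups overlapped in iWAT and were apart in BAT, with a difference of 1.86 ± 0.30 (adjusted p = 0.0465, edgeR). Some reads may be shared with other alpha class members, which was not measured. Prr32, a proline-rich protein gene (chrX:45090904-45092790, plus strand), was between 38.5 and 49.9 CPM in all 6 iWAT libraries. In BAT it was 6.98, 11.97 and 6.01 CPM in WT and 1.71, 0.605 and 1.72 CPM in C6KO, and its difference was 2.76 ± 0.44 (adjusted p = 0.04767).

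Bpifb6, of the BPI fold family of lipid-binding proteins (chr2:153900388-153912793, plus strand), was the rarest. It was 3.38, 4.33 and 3.85 CPM in WT iWAT and 8.76, 6.62 and 7.50 CPM in C6KO iWAT, without overlap, but the iWAT effect of 0.98 ± 0.40 did not pass (adjusted p = 0.2832, edgeR). In BAT it had 4, 19 and 9 counts in WT and 1, 0 and 0 counts in C6KO. The 32 WT counts against 1 C6KO count, with the library totals, give a ratio of 34.4 with a 95% exact interval of 5.74 to 1398 that covers counting error only. The fitted difference of 5.66 ± 0.89 (adjusted p = 0.0465) depends on the prior count.

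**Figure D2:**
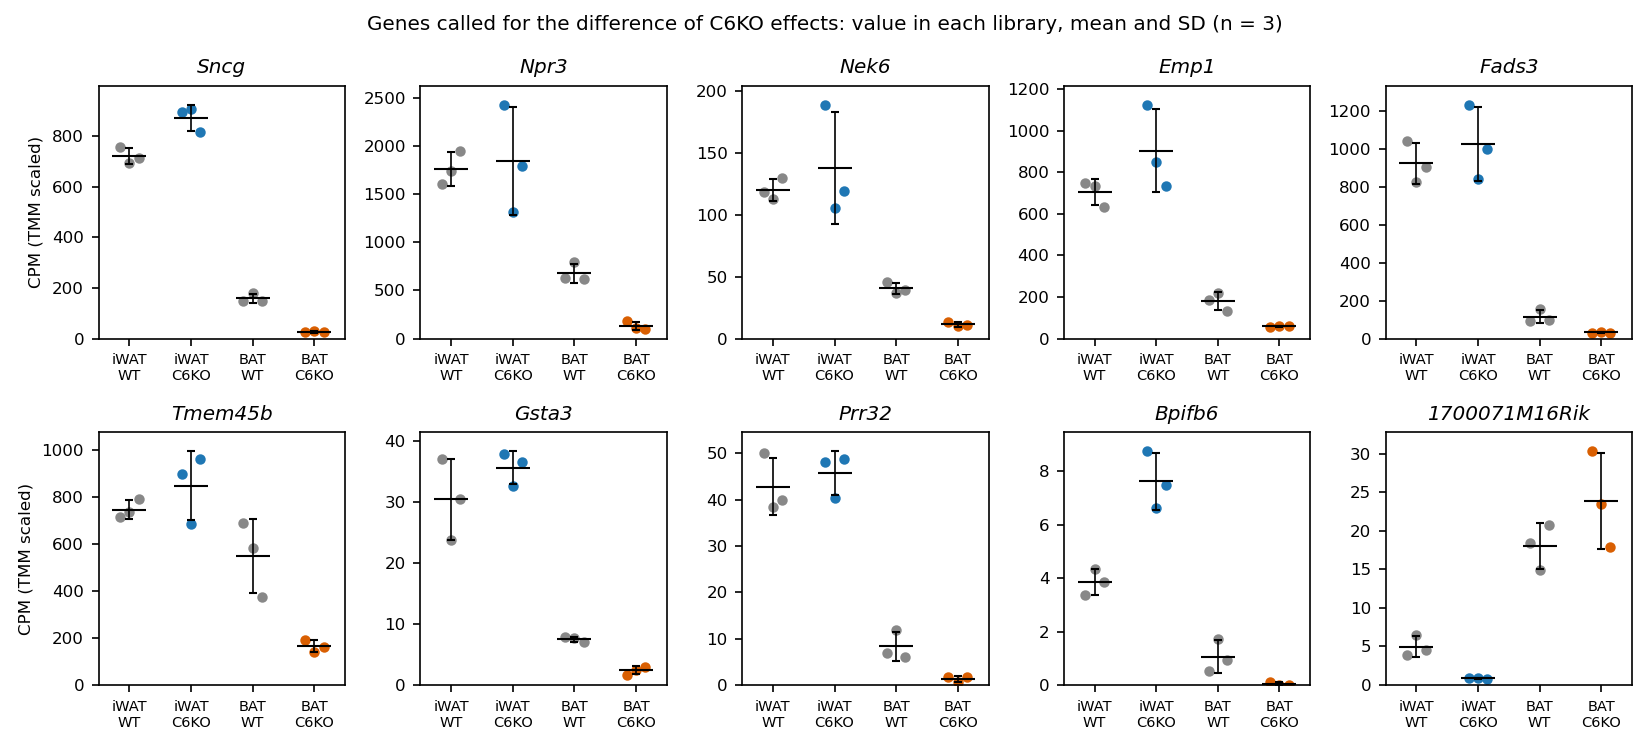
TMM-scaled CPM (vertical axis, linear from 0) of the 10 called genes in the 3 libraries of each group (points) with the mean and SD (bars). In 9 panels C6KO BAT is below WT BAT, as for Sncg at 24.0 to 31.7 against 147.3 to 180.4 CPM in BAT. In 7 of these 9 the iWAT groups overlap, and in Sncg and Bpifb6 C6KO iWAT is above WT iWAT. In the last panel C6KO iWAT is below WT iWAT.

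The calls for these genes depended on the libraries and the tool. DESeq2 called 60 genes higher and 43 lower, and limma voom 3 and 0. Leaving out any 1 of the 3 WT iWAT libraries, or BAT C6KO 2 or BAT C6KO 3, left 1 gene called higher, which was Sncg. Without BAT WT 2, 7 genes were called higher, and Sncg, Nek6, Npr3, Emp1 and Fads3 were among them, while Tmem45b, Bpifb6, Gsta3 and Prr32 were not. Without iWAT C6KO 3, 23 genes were called higher, the 9 among them. No difference of the 10 called genes changed sign under any alternative.

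The only gene called for a lower effect in iWAT was 1700071M16Rik, a noncoding transcript at chr17:43588340-43591509 (minus strand). It was 3.83, 6.53 and 4.60 CPM in WT iWAT and 0.930, 0.901 and 0.761 CPM in C6KO iWAT, and 18.4, 14.9 and 20.7 CPM in WT BAT and 30.3, 23.4 and 17.9 CPM in C6KO BAT. C6KO was below WT without overlap in iWAT, and the groups overlapped in BAT. It was called lower in iWAT, as 0.0863% of genes were, with an effect of -2.515 ± 0.28 (log2, SE; adjusted p = 0.00204, edgeR) and its BAT effect was 0.41 ± 0.24, so that the difference was -2.92 ± 0.37 (adjusted p = 0.01874). The call was lost with voom, with a block within genotype across depots and without iWAT WT 3 or BAT C6KO 2, where the adjusted p was at most 0.1057, and held under the other 24 alternatives.

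1700071M16Rik lies within Pla2g7, on its opposite strand. Pla2g7 encodes a phospholipase that hydrolyses platelet-activating factor and is made by macrophages. It was 37.8, 44.1 and 38.4 CPM in WT iWAT and 12.3, 14.8 and 21.4 CPM in C6KO iWAT, with a difference of effects of -1.63 ± 0.34 that did not pass (adjusted p = 0.1761, edgeR). As the strandedness of the libraries is not given in the sources used here, reads of the overlapping pair cannot be told apart. Beside both genes, the summed level of the 25 general macrophage genes was 2714 to 3114 CPM in WT and 731.5 to 1998 CPM in C6KO in iWAT, and 1163 to 1395 against 455.3 to 647.8 CPM in BAT, lower in C6KO without overlap in both depots; its part in the result was not tested.

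The promoters of called genes are shown because the study concerns the transcription factors PPARγ and SP1. Sequences are those that RefSeq gives for GRCm38.p6 (the mm10 build); 9 of the 10 called genes had an entry and 8 of these began at the start of the counted transcript. The 250 bases before the start are printed 5′ to 3′ on the strand of the gene, with matches to the GC box GGGCGG on either strand in capitals. Sncg, Nek6 and Fads3 held such matches upstream, while Prr32 and 1700071M16Rik, shown for contrast, held none.
Sncg, chr14:34374670-34374919, minus strand: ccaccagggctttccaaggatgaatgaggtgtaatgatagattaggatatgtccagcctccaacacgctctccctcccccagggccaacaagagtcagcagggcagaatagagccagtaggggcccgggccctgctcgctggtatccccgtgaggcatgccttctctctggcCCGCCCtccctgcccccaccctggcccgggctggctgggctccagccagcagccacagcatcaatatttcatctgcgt
Nek6, chr2:38511447-38511696, plus strand: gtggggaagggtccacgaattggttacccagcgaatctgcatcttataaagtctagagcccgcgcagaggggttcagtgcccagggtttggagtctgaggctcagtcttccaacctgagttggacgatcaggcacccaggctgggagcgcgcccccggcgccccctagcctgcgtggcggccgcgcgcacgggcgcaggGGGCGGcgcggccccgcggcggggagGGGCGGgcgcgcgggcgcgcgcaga
Fads3, chr19:10041298-10041547, plus strand: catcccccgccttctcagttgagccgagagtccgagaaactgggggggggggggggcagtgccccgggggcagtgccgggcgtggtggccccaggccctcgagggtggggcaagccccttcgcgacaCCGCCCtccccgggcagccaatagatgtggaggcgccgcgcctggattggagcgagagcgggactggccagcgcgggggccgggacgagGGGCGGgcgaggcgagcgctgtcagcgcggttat
Prr32, chrX:45090654-45090903, plus strand: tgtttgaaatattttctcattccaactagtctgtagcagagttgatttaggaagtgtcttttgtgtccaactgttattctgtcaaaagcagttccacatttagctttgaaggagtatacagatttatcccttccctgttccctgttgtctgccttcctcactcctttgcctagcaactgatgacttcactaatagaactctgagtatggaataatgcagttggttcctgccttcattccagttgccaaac
1700071M16Rik, chr17:43591510-43591759, minus strand: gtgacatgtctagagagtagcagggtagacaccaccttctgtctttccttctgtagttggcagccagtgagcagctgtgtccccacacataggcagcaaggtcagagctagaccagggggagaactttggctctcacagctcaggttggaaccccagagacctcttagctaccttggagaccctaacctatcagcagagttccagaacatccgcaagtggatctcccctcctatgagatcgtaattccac
The match in Sncg begins 78 bases before the start, those in Nek6 at 51 and 25 bases and those in Fads3 at 123 and 34 bases. In windows of 300 bases (250 before and 50 after the start), 5 of the 10 RefSeq promoters of genes called higher held a GC box (50%), against 35.7% of all 32851 promoters in the table and 59.2% of the 14798 promoters of genes tested. The DR1 element, the hexamer AGGTCA repeated after a spacer of 1 base and the form of site that PPARγ binds with its partner receptor, was searched on both strands and was found in 0 of these 10 promoters and in 0.0396% of all promoters. A match is a string of letters and does not show binding.

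Beyond the called genes, several named genes of fat metabolism had a higher estimate in iWAT without passing the adjusted threshold. Leptin (Lep) was 3194, 2832 and 3366 CPM in WT iWAT and 3656, 1481 and 3116 CPM in C6KO iWAT, and 365.6, 519.6 and 320.5 CPM in WT BAT and 20.2, 40.6 and 58.3 CPM in C6KO BAT. The genotypes overlapped in iWAT and lay far apart in BAT, where Lep fell by 3.34 (log2; adjusted p = 0.00379, edgeR). The difference of effects was 3.15 ± 0.54 with an adjusted p of 0.06854.

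Plin5, a perilipin that ties lipid droplets to mitochondria, differed through iWAT instead. It was 17.4, 24.4 and 24.6 CPM in WT iWAT and 78.0, 99.3 and 72.6 CPM in C6KO iWAT, while BAT held 656.8, 403.7 and 592.6 CPM in WT and 609.8, 526.8 and 672 CPM in C6KO. Plin5 was among the 0.0133% of genes called higher in iWAT and rose there by 1.91 ± 0.21 (adjusted p = 0.00204, edgeR) to a level still below every BAT library, its BAT effect was 0.13 ± 0.21, and the difference of 1.78 ± 0.29 had an adjusted p of 0.05129. Psat1, an enzyme of serine synthesis, went the way of Lep: it was 165.8, 146.7 and 174.3 CPM in WT iWAT and 102.3, 114.2 and 184.6 CPM in C6KO iWAT, and 29.0, 30.4 and 32.3 CPM in WT BAT and 7.46, 8.12 and 9.49 CPM in C6KO BAT. Its BAT effect was -1.87 (adjusted p = 0.001325), its iWAT effect -0.28 ± 0.19, and the difference 1.59 ± 0.28 (adjusted p = 0.06597).

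Slc6a13, a transporter for GABA and taurine, had a difference of 1.88 ± 0.32 (adjusted p = 0.05595, edgeR). It fell in BAT by 1.71 on the log2 scale. Gm5627, a predicted gene whose reads may be shared with a copy, had a difference of 3.57 ± 0.60 (adjusted p = 0.05595). With DESeq2, Lep, Plin5, Psat1, Slc6a13 and Gm5627 were called. Of up to 28 alternatives, Lep was called under 3 and each of the other genes under 7. On simulated counts, 11.2% of DESeq2 calls were false, against 3.47% of edgeR calls. Those counts were drawn with edgeR's own estimates of spread, and 200 genes were changed by 2 (log2) in C6KO iWAT only. The setting may favour edgeR and held no outlying library, so it does not show which DESeq2 calls are false here.

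Among genes with a lower estimate in iWAT, 14 filled the list of the 15 smallest p below 1700071M16Rik, and none of the 14 was called. C3, the central complement protein, was 526.2, 725.7 and 721.9 CPM in WT iWAT and 252.8, 468.4 and 405.1 CPM in C6KO iWAT, but 426.6, 465.9 and 587.6 CPM in WT BAT and 1053, 1140 and 965.3 CPM in C6KO BAT. The groups did not overlap in either depot and stood in opposite order. C3 rose in BAT, where 0.306% of genes were called higher, by 1.09 (log2; adjusted p = 0.03226, edgeR), its iWAT effect was -0.81 ± 0.22 (adjusted p = 0.1441), and the difference of -1.90 ± 0.31 had an adjusted p of 0.05129.

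Fdft1, squalene synthase in the sterol pathway, had the same opposite order. It was 85.1, 92.4 and 87.8 CPM in WT iWAT and 50.7, 60.5 and 75.4 CPM in C6KO iWAT, and 68.4, 73.2 and 68.2 CPM in WT BAT and 118.9, 97.6 and 128.7 CPM in C6KO BAT, for a difference of -1.23 ± 0.22 (adjusted p = 0.06597, edgeR). Elovl6, which elongates palmitate, was 29.2, 23.1 and 22.8 CPM in WT iWAT and 11.2, 6.94 and 15.5 CPM in C6KO iWAT, and 239.3, 149.5 and 289.4 CPM in WT BAT and 473.4, 594.8 and 326.8 CPM in C6KO BAT. Again neither depot showed overlap, and the difference was -2.20 ± 0.44 (adjusted p = 0.161). Elovl6 lies within 10 Mb of Casp6 on chromosome 3.

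Glul, glutamine synthetase, differed through BAT. It was 1217, 1276 and 1435 CPM in WT iWAT and 1041, 1112 and 1271 CPM in C6KO iWAT, with overlap, and 791.1, 909.4 and 1127 CPM in WT BAT and 1913, 2131 and 2663 CPM in C6KO BAT. It rose in BAT by 1.25 (log2; adjusted p = 0.005626, edgeR) and the difference was -1.44 ± 0.25 (adjusted p = 0.05922). Acot11, an acyl-CoA thioesterase known from brown fat, was low in iWAT, at 4.62, 3.71 and 4.28 CPM in WT and 1.20, 0.530 and 1.30 CPM in C6KO. In BAT, Acot11 was 255.5, 159.2 and 301.2 CPM in WT and 434.4, 410.5 and 250.8 CPM in C6KO, and the difference was -2.66 ± 0.45 (adjusted p = 0.05922). The transcript counted for Acot11 differed between the depots' tables, so its difference compares partly different exons.

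Of the other genes in this group, Kcnk3, a potassium channel, and Stxbp2, a vesicle fusion protein, had risen in BAT by 1.24 and 1.04 (log2; adjusted p = 0.01011 and 0.01317, edgeR), with iWAT effects of -0.09 and -0.12. Cacna1a, a calcium channel subunit, and Efr3b had fallen in iWAT by 1.11 and 1.17 (adjusted p = 0.04726 for both), with BAT effects of 0.30 and 0.06. Cln3 and Wdr91, proteins of lysosomes and endosomes, had differences of -1.22 ± 0.25 and -1.21 ± 0.25 (adjusted p = 0.1492 for both). Slc12a7 and Pbld1 complete the list, with differences of -0.92 and -1.36 (adjusted p = 0.1113 and 0.2126). Fdft1, Acot11, Cln3 and Kcnk3 overlap other annotated genes, so that part of their reads may belong to those.

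**Figure D3:**
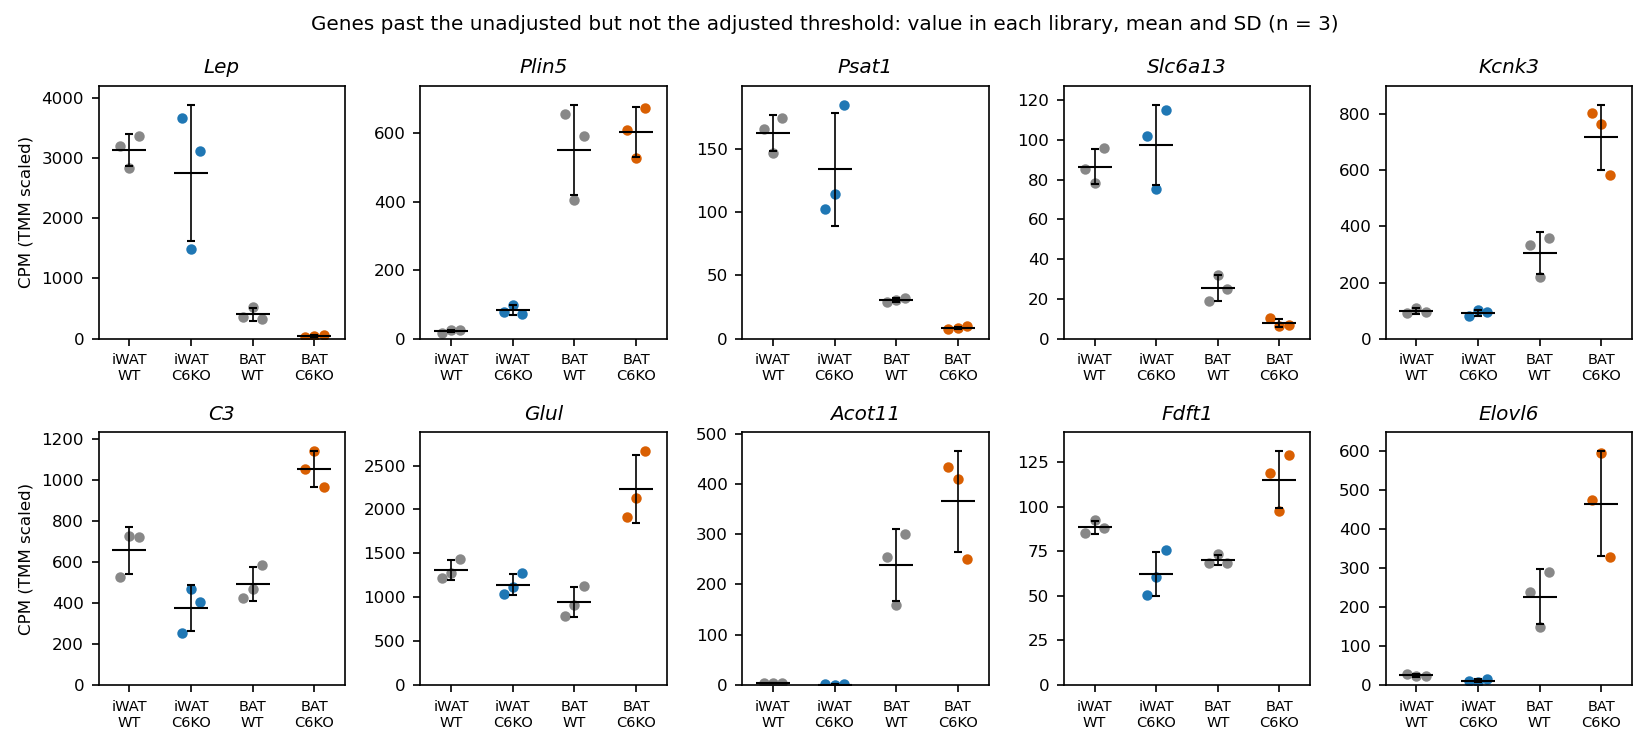
TMM-scaled CPM (vertical axis, linear from 0) of 10 genes that passed the unadjusted but not the adjusted threshold, in the 3 libraries of each group (points) with mean and SD (bars). Lep, Psat1 and Slc6a13 are lower in C6KO BAT, Kcnk3 is higher in C6KO BAT, Plin5 is higher in C6KO iWAT, and C3, Fdft1 and Elovl6 are lower in C6KO iWAT and higher in C6KO BAT.

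The gene lists below were tested as genes within the whole table and are described by counts at an unadjusted p below 0.05 and at least 1.5-fold, against the 3.81% and 2.36% of all genes that were higher or lower in iWAT in this way. These shares were 3.04% and 3.7% without BAT WT 2, and 3.77% and 5.1% without iWAT C6KO 3. Of all listed genes only Fads3 and Gsta3 were called after adjustment. Hormones and secreted factors of adipocytes, the adipokine list, had 9 of 27 tested members higher in iWAT (33.3%) and 1 lower, with a median difference of 0.61 from medians of -0.11 in iWAT and -0.94 in BAT. Lep, Nnat, Ccl2, Rarres2, Nrg4, Fgf21, Sfrp5 and Apln were among the 9. Ccl2, which attracts monocytes, was at -0.20 in iWAT and -2.70 in BAT (log2; adjusted p = 0.03303 in BAT, edgeR). Without BAT WT 2, 6 of 27 were higher and the median was 0.48, and without iWAT C6KO 3, 8 were higher and 2 lower.

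White adipose identity markers had the same sign, with 3 of 9 tested members higher in iWAT (33.3%), a median of 1.19 and medians of 0.48 in iWAT and -0.90 in BAT. Lep and Nnat, an imprinted neuronatin that white fat expresses, led the list, Nnat with a difference of 2.50 ± 0.53 (adjusted p = 0.2126, edgeR). Both also belong to the adipokine list, so the 2 lists are not separate evidence. Nnat was 1006, 1193 and 1091 CPM in WT iWAT, 1013, 1990 and 1406 CPM in C6KO iWAT, 169.6, 418.8 and 160.4 CPM in WT BAT and 44.0, 80.5 and 53.2 CPM in C6KO BAT. The median of the list fell to 0.38 without BAT WT 2. The summed level of the other 2 WT BAT libraries, mostly Lep and Nnat, was still above that of every C6KO BAT library. Brown adipose identity markers had 0 of 8 higher and 2 of 8 lower (Otop1 and Elovl3), with a median of -0.59. Without iWAT C6KO 3 these counts were 1 and 3. The summed level of the 8 markers was 391.8 to 478.3 CPM in WT iWAT and 597.9 to 1420 CPM in C6KO iWAT, without overlap. Most of that iWAT sum was Pdk4, at 382.6, 341.1 and 440.2 CPM in WT and 1392, 569.8 and 526.6 CPM in C6KO. Of the 8 markers, 5 had a lower C6KO estimate in iWAT, and the median iWAT effect was -0.23. The sum was 10820 to 18420 CPM in WT BAT and 12600 to 18420 CPM in C6KO BAT, with overlap.

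The unfolded protein and integrated stress response list had 7 of 31 members higher in iWAT (22.6%) and 0 lower, with a median of 0.50 from 0.12 in iWAT and -0.30 in BAT. Atf4, its central transcription factor, was at 0.11 in iWAT and fell in BAT by 0.90 (log2; adjusted p = 0.01794, edgeR), and the chaperone Hspa5 was at 0.21 and -0.49. Xbp1 differed through iWAT, at 0.68 against -0.12. Psat1, Atf5, Fgf21 and Manf were the other members. Without BAT WT 2, 10 of 31 were higher and the median was 0.54, and without iWAT C6KO 3, 8 were higher and 1 lower.

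Lipolysis enzymes and regulators had 4 of 23 members higher (17.4%), which were Plin5, the adrenergic receptor Adrb1, the glycerol channel Aqp7 and the ATGL inhibitor G0s2, and 0 lower. Without iWAT C6KO 3, 5 were higher and 1 lower. In iWAT, 14 of the 23 had C6KO above WT without overlap (11.7% of all genes) and in BAT 3 (7.94%), with medians of 0.45 and 0.04. Pnpla2, which encodes ATGL, the first lipase of triglyceride breakdown, was above WT without overlap in both depots, at 0.75 ± 0.16 in iWAT and 0.57 ± 0.16 in BAT, and its difference of 0.17 ± 0.22 had an adjusted p of 0.9012 (edgeR). PPARγ target genes had 1 of 30 higher (3.33%) and 0 lower, which became 4 and 0 without BAT WT 2 and 3 and 2 without iWAT C6KO 3, with a median of 0.18 that was 0.21 and 0.23. Pparg and Sp1 themselves differed by 0.09 ± 0.29 and -0.03 ± 0.20.

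The lists of de novo lipogenesis, cholesterol synthesis, thermogenesis and lysosomes had more members lower than higher in iWAT. De novo lipogenesis had 4 of 23 members lower (17.4%; Elovl6, Fasn, Insig1 and Elovl3) and 2 higher (Fads3 and Fads1), with a median of -0.30. Without BAT WT 2 these counts were 2 lower and 2 higher, and without iWAT C6KO 3 they were 8 lower and 2 higher. Fasn, fatty acid synthase, was at -0.94 in iWAT and 1.31 in BAT with overlap in both. Cholesterol synthesis also had 4 of 23 lower (Fdft1, Dhcr7 and Insig1 among them) and 0 higher, with a median of -0.37 that was -0.20 without BAT WT 2 and -0.75 without iWAT C6KO 3. The lower members numbered 2 without BAT WT 2 and 9 without iWAT C6KO 3. Triglyceride synthesis had 1 of 19 lower and 2 higher, and 4 lower and 2 higher without iWAT C6KO 3. Thermogenic brown adipocyte genes had 7 of 32 lower (21.9%; Acot11, Kcnk3, Alpl, Otop1, Pank1, Esrrg and Elovl3) and 2 higher (Adrb1 and Fgf21), with a median of -0.08. Ucp1 was not among them, with a difference of 0.06 ± 0.66.

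Lysosomal genes had 7 of 50 members lower by the unadjusted test (14%) and 0 higher, and 2 of the 7, Lipa and Ctsz, were below WT in iWAT and above WT in BAT without overlap. Lipa, the acid lipase, was at -0.83 in iWAT and 0.40 in BAT, and cathepsin Z at -0.52 and 0.86. Hexa, Grn, Psap and Atp6v1b2 were also among the 7. The median was -0.22, from -0.36 in iWAT and -0.08 in BAT, and 27 of the 50 were below WT without overlap in iWAT (11.5% of all genes) against 18 in BAT (11.9%). Without BAT WT 2, 5 of the 50 were lower, and without iWAT C6KO 3, 14.

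General macrophage genes, by contrast, had low estimates in both depots, with medians of -1.37 in iWAT and -1.23 in BAT, and 1 of 25 was lower and 0 higher by the difference. Lyz2 was at -1.18 and -1.39, C1qb at -1.34 and -1.32 and Csf1r at -1.25 and -0.77. None of these genes passed within a depot, where their adjusted p lay between 0.09741 and 0.204 (edgeR). The median difference of the list was -0.14. Without iWAT C6KO 3 it was -0.70, with 14 of 25 lower, and without BAT WT 2 it was -0.15, with 0 lower.

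Further lists were described in the same way. Cell cycle genes had medians of -0.69 in iWAT and -0.76 in BAT with 1 of 36 higher by the difference (Ccnd1), and MHC class II genes medians of -0.93 and -0.87 with 0 of 12 in either direction. Without iWAT C6KO 3, 2 members were lower in each of these lists. Among 39 chemokines and their receptors 4 were higher in iWAT (10.3%; Ccl2, Ccl7, Ccl11 and the lymphocyte receptor Ccr7) and 0 lower, but 3 were lower without BAT WT 2 and 2 without iWAT C6KO 3. Lipid-associated macrophage genes had 3 of 24 lower (12.5%; Lipa, Syngr1 and Atp6v1b2) and 0 higher, with 2 lower and 2 higher without BAT WT 2 and 8 lower without iWAT C6KO 3. Antioxidant genes split, with Gsta3, Gsta4 and Gpx7 higher and Gclm, Mt1 and Hmox1 lower; without iWAT C6KO 3, 5 were higher and 3 lower. Ckb, the creatine kinase of brown fat, was at -1.01 in iWAT and 0.34 in BAT, a difference of -1.35 ± 0.43 (adjusted p = 0.4844, edgeR).

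Mitochondrial lists showed little difference. Of 93 nuclear genes of the respiratory chain, ATP synthase and their assembly, 0 were higher and 0 lower, with medians of 0.10 in iWAT and 0.12 in BAT. Of 25 genes of mitochondrial fatty acid oxidation, 0 were higher and 0 lower, and 24 had a positive estimate in each depot (medians of 0.23 in both). Branched-chain amino acid catabolism likewise had 0 of 22. Leaving out BAT WT 2 or iWAT C6KO 3 gave at most 1 member in either direction in each of these 3 lists. A list of 17 tested genes with known roles in fat, among them Cox4i1, Ndufv1, Lipe, Adipoq, Fabp4 and Il1b, had 0 members past the unadjusted threshold and 1.5-fold in either direction, and 2 higher without BAT WT 2. Cd36, a fatty acid transporter, had the smallest p of these, with a difference of 0.56 ± 0.23. The transcript counted for Cd36 differed between the depots' tables, so its difference may compare partly different exons.

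**Figure D4:**
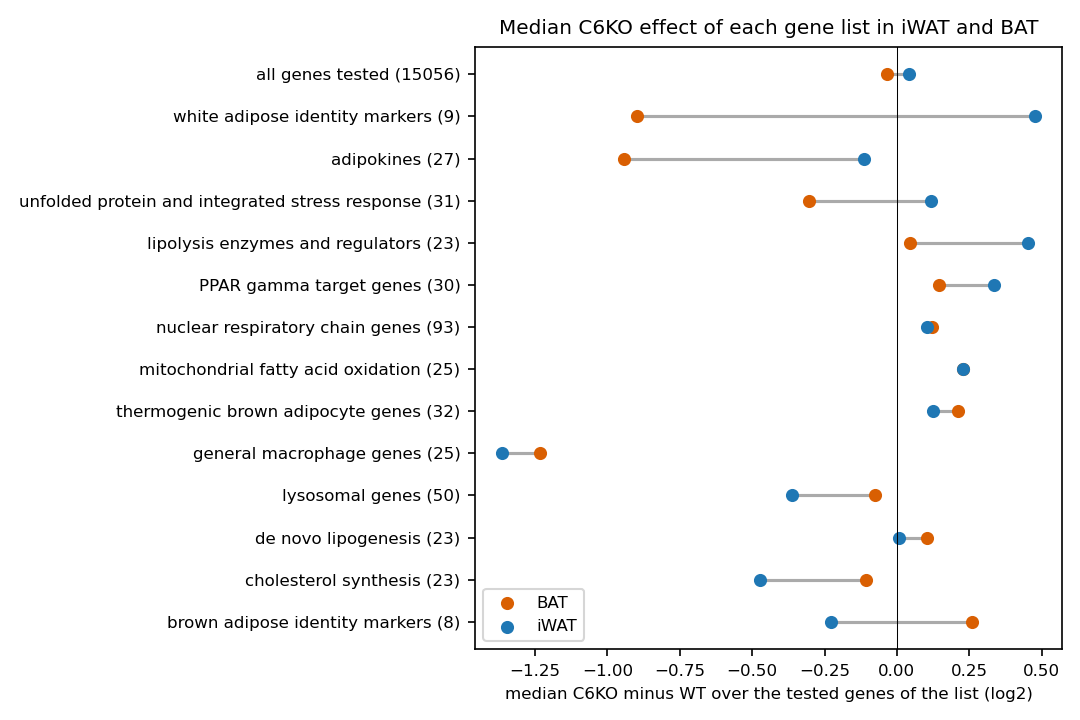
Median C6KO minus WT (log2, horizontal axis) in iWAT (blue) and BAT (orange) over the tested genes of 13 lists and of all 15056 genes, with the number of genes tested in parentheses. White adipose markers and adipokines lie furthest apart, with BAT at -0.90 and -0.94, and general macrophage genes lie below -1.2 in both depots.

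Lists of other cell types that fat can hold were set beside these results. T and B lymphocyte genes had 7 of 25 higher in iWAT (28%) with a median difference of 2.60, which was 0.39, with 1 of 25 higher, without BAT WT 2 and 1.56, with 1 higher, without iWAT C6KO 3. Skeletal muscle genes had 0 of 30 higher, and their median of 1.81 was -2.46 without BAT WT 2, with 2 lower. Their leading members Acta1, Myh4 and Atp2a1 had standard errors of 2.57 to 4.24 (log2). Endothelial genes had 1 of 28 higher and 1 lower (0 of each without BAT WT 2) with a median of -0.0038, and their sum was above WT without overlap in C6KO BAT. Adipocyte progenitor genes had 3 of 25 higher and collagen genes 4 of 28, with medians of 0.26 and 0.18 that were 0.01 and -0.06 without BAT WT 2. Without that library 2 progenitor genes were higher and 2 lower, and 1 collagen gene was higher and 3 lower. Without iWAT C6KO 3, 2 collagen genes were higher and 2 lower. Hepatocyte secreted protein genes had sums above WT in both depots without overlap, and erythroid genes a sum below WT in iWAT, with 0 members past the unadjusted threshold for the difference in either list (at most 1 without BAT WT 2 or iWAT C6KO 3). Neutrophil, mast cell, NK cell, Schwann cell, smooth muscle, epithelial and mesothelial lists had at most 1 member past it in either direction, other than 2 lower in the Schwann cell list without BAT WT 2. Only 5 of 13 neutrophil, 2 of 21 epithelial and 2 of 9 mesothelial genes were tested, so their counts say little. The mesothelial sum was 1.88 to 2.28 CPM in WT BAT and 6.36 to 8.99 CPM in C6KO BAT, and it overlapped in iWAT. Genes within 10 Mb of Casp6, which share its chromosome region, had 4 of 88 higher (4.55%) and 3 lower (3.41%), 5 and 5 without iWAT C6KO 3, and 0 of them was called.

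**Figure D5:**
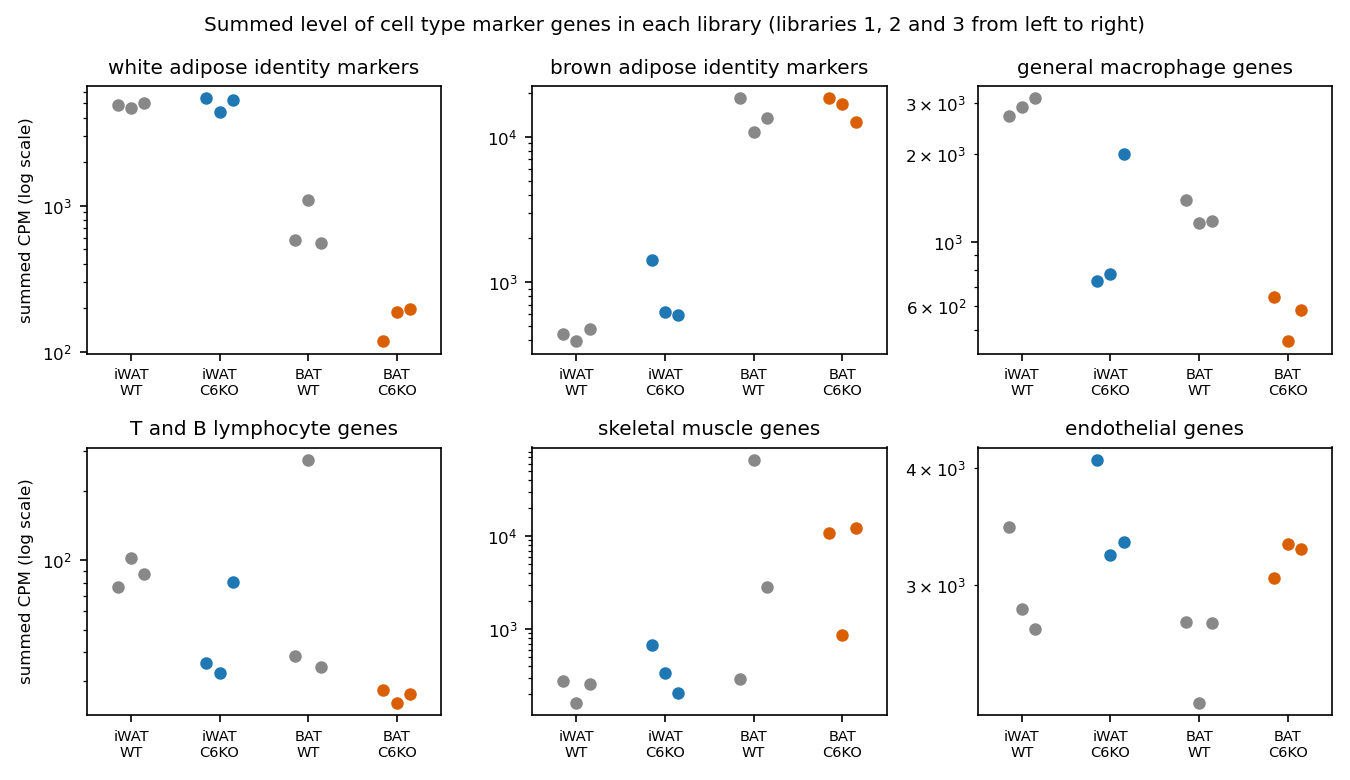
Summed CPM per library (log scale) of 6 marker lists in the 4 groups, libraries 1 to 3 from left to right. White adipose markers are lower in C6KO in BAT and overlap in iWAT, macrophage genes are lower in C6KO in both depots, and BAT WT 2 stands apart for skeletal muscle (66290 CPM) and lymphocyte genes (274.1 CPM).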

How the data were processed

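The authors purified poly(A) RNA from iWAT, eWAT and BAT, sequenced it on an Illumina NextSeq, aligned reads to mm10 with STAR at default settings and counted exon reads with HOMER, keeping 1 transcript per gene. They deposited 1 table per depot of raw counts, whole numbers without normalization, for 25124 genes. Strandedness, annotation and tool versions are not given in the sources used here. The kept transcript differed between the iWAT and BAT tables for 1134 of the genes tested (7.53%). The 12 iWAT and BAT libraries were mapped by title, table and column name, 0 value columns were left without a sample, and eWAT was used only in the alternative with 18 libraries and in the closing section.

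Tables were joined by symbol and fitted in edgeR 4.0.16 (limma 3.58.1, R 4.3.3) with filterByExpr, TMM and robust quasi-likelihood. The design had 4 groups, and the interaction was tested over 15056 genes with 8 residual degrees of freedom, a procedure tested on simulated data. Calls needed a Benjamini-Hochberg adjusted p below 0.05 and 1.5-fold. Values given as SE are the absolute log2 estimate divided by the square root of the quasi-likelihood F statistic, and are approximate. Variation between replicates (edgeR's common coefficient) was 0.218 for iWAT and 0.33 for BAT. CPM of single genes are TMM-scaled, and marker sums use total counts. DESeq2 1.42.0 and voom were alternatives, with other scalings, filters, depths and blocks and the omission of each library. Figures used matplotlib 3.10.9.

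Genes were named by rule: per direction the 15 smallest p, called genes first, with at least 1 CPM in each depot; called list members; a short list of genes with known roles in fat, part of them measured by the study; Casp6 and called genes within 10 Mb; and leading members of cell type lists. Members, lists and tests were chosen with earlier results of these data known. Members of lists past the unadjusted threshold were named after their values were seen. Some genes that met these criteria are not reported here.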

Additional observations from a re-analysis of the deposited data

Results flagged for a closer look

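For 10 genes the effect of C6KO differed between iWAT and BAT by the test of the difference itself (the interaction term in edgeR, Benjamini-Hochberg adjusted p below 0.05). The differences (iWAT minus BAT, log2) were 2.81 for Sncg, 2.04 for Nek6, 2.44 for Npr3, 1.95 for Emp1, 1.95 for Fads3, 1.93 for Tmem45b, 5.66 for Bpifb6, 1.86 for Gsta3 and 2.76 for Prr32. Each of these genes had lower levels in C6KO BAT, which made up the larger part of the difference. Sncg and Bpifb6 were also above WT without overlap in C6KO iWAT. For 1700071M16Rik the difference was -2.92, through lower levels in C6KO iWAT. Groups of 3 libraries were not tested for outlying values.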

How the results depend on the processing

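Directions of the 10 called genes were stable and counts were not. These genes were picked for large differences in the same libraries, so a change of sign was unlikely. Medians of some lists did change sign, as for skeletal muscle genes, at 1.81 and, without BAT WT 2, -2.46. Under the 28 alternatives the sign of no called gene's difference changed, but the 9 genes called higher and 1 called lower became 60 and 43 with DESeq2, 18 and 11 with all 18 libraries in one fit, 16 and 5 without a filter on low counts, 5 and 1 with total counts as the only scaling, with genes passing the filter in both depots or with at least 10 counts in every library, 9 and 2 with RLE size factors, 13 and 4 with iWAT thinned to the BAT depth, 10 and 2 with genes of the same transcript in both tables, 1 and 1 with glmTreat, and 3 and 0 with voom and weights per depot (432 and 384 at an unadjusted p below 0.05 and 1.5-fold); the cause was not tested. In an alternative chosen after seeing the data, leaving out both BAT WT 2 and iWAT C6KO 3, they were 25 and 51. Leaving out 1 library gave 1 to 23 higher and 0 to 40 lower. The highest counts, 23 and 40, came without iWAT C6KO 3. Higher calls numbered 1 without each WT iWAT library and without BAT C6KO 2 or 3, 2 without BAT C6KO 1, and 4 without BAT WT 1. Lower calls numbered 0 without iWAT WT 3 or BAT C6KO 2 (358 and 307 by the unadjusted rule), 2 without iWAT C6KO 2 and 4 without BAT WT 3.

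The labels do not say whether same-numbered libraries came from the same animal, and the main fit used no pairing. Same-numbered libraries of 1 genotype in both depots had deviations that correlated by 0.012 to 0.092 (mean 0.056). Libraries with other numbers correlated by -0.128 to 0.064 (mean -0.028). Same-numbered genotypes correlated by -0.511 to -0.176 in BAT and 0.0076 to 0.059 in iWAT. These values do not settle whether the numbers pair animals. With the number as a replicate block 7 and 3 genes were called, 4 of the 9 among the 7, and with a block within genotype across depots 3 and 0 (559 and 389 by the unadjusted rule). BAT was read less deeply than iWAT and varied more, so differences in genes that BAT holds at few counts are the least certain.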

Other observations

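Epididymal fat, the third depot of the series, took no part in the difference of effects. In the fit of all 18 libraries (15866 genes), each of the 9 genes called for a higher effect in iWAT had a higher C6KO estimate in eWAT, between 0.29 and 0.94 (log2), and 5 of the 9 had an unadjusted p below 0.05 in eWAT, which 10.1% of all genes had. None passed adjustment, with adjusted p between 0.1068 and 0.8849 (edgeR). Sncg was 306.9, 325.9 and 290.6 CPM in WT eWAT and 442.9, 561 and 418.2 CPM in C6KO eWAT, without overlap. Prr32 was 14.6, 10.2 and 13.2 CPM in WT and 20.3, 26.1 and 26.1 CPM in C6KO, and Fads3 was 454, 352.4 and 427.6 CPM against 701.3, 677.6 and 529.3 CPM, also without overlap. The shares of all genes without overlap or with a higher C6KO estimate in eWAT were not counted. Genotypes did not overlap for 23.2% of genes in iWAT and 19.9% in BAT. Plin5, which rose in iWAT, was 9.74, 6.79 and 12.4 CPM in WT eWAT and 41.5, 13.4 and 29.9 CPM in C6KO eWAT, an effect of 1.55 (adjusted p = 0.1068). Whether these eWAT effects differ from those in BAT or iWAT was not tested here.

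1700071M16Rik had an eWAT effect of -0.46 (adjusted p = 0.621, edgeR), with 9.20, 19.1 and 9.98 CPM in WT and 10.2, 7.45 and 10.1 CPM in C6KO, and these groups overlapped. C3, at -0.45, was 2783, 3391 and 2381 CPM in WT and 2017, 1786 and 2458 CPM in C6KO in eWAT. Its level in eWAT was thus above that of every iWAT and BAT library, and its groups overlapped.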
